A study of Drosophila melanogaster with 2 samples.

Results

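The EGF receptor pathway genes described here are 9 of the 13945 protein-coding genes of Drosophila melanogaster. They are the receptor gene Egfr, the ligand genes spi and vn, the ligand processing genes rho and S, the feedback inhibitor genes aos and sty, and the ETS transcription factor genes aop and pnt. They were chosen by function, and every deposited region with its summit in the gene span or within 3000 bp of it was assigned to them. The samples were whole embryos of mixed sex, aged 0 to 24 h, of a transgenic line that expresses the basic helix-loop-helix protein Daughterless (gene da) with GFP at its C terminus. An antibody against GFP was used for the precipitation after sonication to fragments of 200 to 800 bp, and 2 biological replicates, numbered 2 and 3, formed the only group. All tissues and stages were mixed, and region lists hold no expression values by which the labelled tissue could be checked.

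Daughterless is the common partner of the tissue-specific basic helix-loop-helix proteins and binds E-boxes, sequences of the form CANNTG. In the EGF receptor pathway, a transmembrane precursor of Spitz (spi) is carried from the endoplasmic reticulum by Star (S) and cleaved by the intramembrane protease Rhomboid (rho), and the released ligand activates Egfr on neighbouring cells. Vein (vn) is a secreted ligand that needs no such cleavage. The signal passes through Ras, Raf and MAP kinase to Pointed (pnt), an activator, and Yan (aop), a repressor that the kinase inactivates, while Argos (aos), a secreted protein that sequesters Spitz, and Sprouty (sty), an intracellular inhibitor, limit it. In the fly embryo the pathway is known for patterning the ventral ectoderm and for recruiting cells around sensory organ precursors, whose first cells are set by proneural partners of Daughterless.

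The pooled list holds 30000 regions of peaks and background, and the thresholded list holds the 1941 regions that passed the authors' filter on irreproducible discovery. Each region has a signal, the enrichment value that the authors deposited for it, which served to rank and describe regions within a list and to set replicate 3 against replicate 2. Thresholded signals ran from 64.2 to 877 with a median of 88.1. The pooled list held 169 regions at the 9 genes, of which 12 were thresholded, and the lists of replicates 2 and 3 held 160 and 169. No region was assigned to more than 1 of the 9 genes. Read counts are not part of these lists, so the depth behind a signal is unknown, and the control was not analysed here.

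Thresholded regions were found at 7 of the 9 genes: 3 at S, 2 each at spi, aop and pnt, and 1 each at vn, aos and sty. Egfr and rho had none. Among all protein-coding genes 22.8% had a thresholded summit within 3000 bp, and among the 3154 genes whose span lies between those of the shortest and longest of the 9 genes (5134 and 55937 bp) 33.4% had one. The 9 genes are long, with a median span of 23783 bp against 2166 bp over all genes. All 7 had a thresholded summit inside the gene span itself, which 6.53% of all genes had. The same 7 genes were found within 1000 bp, where 16.1% of all genes had one, and within 10000 bp, where 39.6% had one. The shares for the span alone, 1000 bp and 10000 bp are over genes of every span. Unlike the 33.4%, they make no allowance for the length of the 9 genes. The 33.4% does so only in part, since it takes every gene in that range without matching lengths to the 9.

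The sequence around the highest thresholded region of each of the 7 genes is shown, with a further region of S, because they hold the highest signals at those genes and most hold no E-box. Each line is the summit base with 50 bases on either side, on the plus strand of dm6, with E-boxes in capitals. The sequences are from the Release 6 assembly.
spi, chr2L:19575670-19575770: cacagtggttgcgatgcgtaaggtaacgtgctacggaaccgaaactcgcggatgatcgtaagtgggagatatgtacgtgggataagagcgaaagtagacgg
vn, chr3L:5824219-5824319: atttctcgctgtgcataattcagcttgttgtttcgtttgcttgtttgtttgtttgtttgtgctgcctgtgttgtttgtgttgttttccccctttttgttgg
S, chr2L:1072361-1072461: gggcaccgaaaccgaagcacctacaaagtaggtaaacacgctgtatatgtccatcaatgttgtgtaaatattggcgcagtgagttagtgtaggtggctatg
S, chr2L:1075871-1075971: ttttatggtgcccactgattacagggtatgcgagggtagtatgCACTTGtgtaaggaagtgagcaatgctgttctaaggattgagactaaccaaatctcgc
aos, chr3L:16480510-16480610: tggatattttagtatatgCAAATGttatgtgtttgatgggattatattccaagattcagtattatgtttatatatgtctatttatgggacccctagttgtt
sty, chr3L:3418819-3418919: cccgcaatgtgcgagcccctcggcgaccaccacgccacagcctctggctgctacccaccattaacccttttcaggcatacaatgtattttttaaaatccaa
aop, chr2L:2163625-2163725: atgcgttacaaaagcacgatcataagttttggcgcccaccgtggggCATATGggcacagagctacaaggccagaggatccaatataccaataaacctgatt
pnt, chr3R:23326493-23326593: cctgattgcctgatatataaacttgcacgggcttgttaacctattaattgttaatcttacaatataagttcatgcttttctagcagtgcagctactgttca

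CANNTG was present in 3 of the 12 thresholded windows of this length, those of aos, aop and the second region of S. Over all 1941 thresholded windows 42.6% held one, and a count of 3 in 12 is too small to set the 9 genes apart. The E-box of aos was CAAATG (16480528 to 16480533), 29.5 bp from the summit to its centre. That of aop was CATATG (2163671 to 2163676), 1.5 bp from the summit, and that of S was CAAGTG, read as CACTTG on the plus strand (1075914 to 1075919), 4.5 bp from it. These forms were in 8.81%, 3.30% and 5.41% of all thresholded windows. CAGCTG, a form bound by many Daughterless dimers, was in 0 of the 12 windows and in 10.5% of all thresholded windows. TATCGATA, the DNA replication-related element, was in 0 of 12, against 2.52%. Both strands were searched, and no match says only that these letters are not in this window. The GC content of the 12 windows ran from 28.7% at aos to 59.4% at the third region of S, with a median of 43.1% against 38.6% over all thresholded windows.

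Over all pooled regions of these genes, the 12 thresholded ones included, E-boxes were about as frequent as elsewhere. Of the 169 regions, 75 (44.4%) held CANNTG against 45.3% of all 30000 pooled windows, and 15 (8.88%) held CAGCTG against 7.97%. The 15 lay at 7 of the genes, with 4 at vn, 3 each at Egfr and sty, 2 at pnt, and 1 each at rho, S and aop. The strongest of them was in an intron of vn, with its summit at 5834412 and a signal of 36.8, well under the thresholded regions, and its window held 2 copies of CAGCTG and a CAGATG. It was listed in replicate 3 (23.6) with no match in replicate 2.

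Introns held most of the thresholded regions. Of the 12, 8 (66.7%) were in introns more than 500 bp from any transcription start site (TSS), 3 were within 500 bp of a TSS and 1 was upstream of its gene, whereas 29.7% of all 1941 thresholded regions were in such introns and 55.1% within 500 bp of a TSS. The 12 were assigned by gene span, and these genes are long. No share was computed for thresholded regions of other long genes, so the share in introns does not set these genes apart. Among all 169 pooled regions, 109 were in introns, 26 at promoters, 13 in coding exons, 13 between genes, 5 in 5′ and 3 in 3′ untranslated regions. These classes were not counted over all 30000 pooled regions, and the shares of the thresholded list are no measure for them. In 11 of the 12 the nearest TSS belonged to the gene itself, and no like share was computed for other genes. The exception was at vn, whose region lay 11176 bp upstream of the TSS of mad2, which encodes a spindle checkpoint protein.

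**Figure D1:**
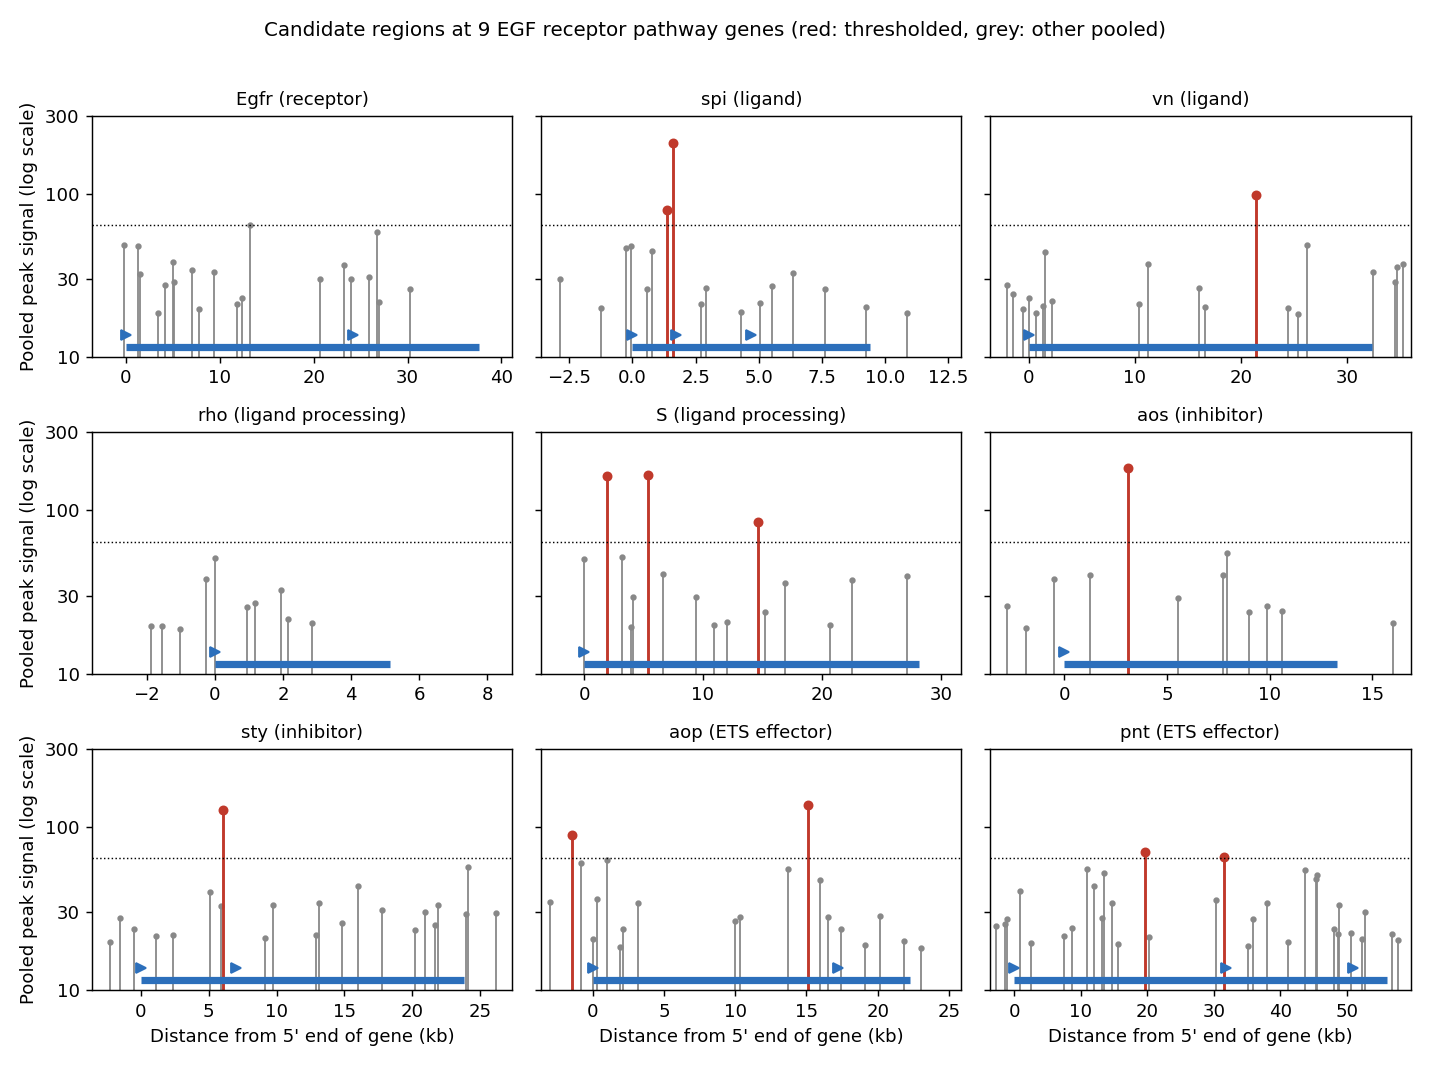
Pooled peak signal (log scale) of each region at the 9 genes by distance of its summit from the 5′ end of the gene in kb, in the direction of transcription; red stems are thresholded, blue bars the gene, arrowheads its TSSs, and the dotted line the lowest thresholded signal of 64.2. Thresholded regions stand inside 7 genes, mostly away from the arrowheads. All regions of Egfr and rho are under the line, the highest of Egfr just below it.

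The ligand gene spi held the strongest region of the 9 genes. Spitz is the main activating ligand in the embryo. The gene (FBgn0005672, chr2L:19567900-19577315, minus strand) had its highest summit at 19575720, 133 bp upstream of an internal TSS at 19575587, at rank 113 of the pooled list. The signal was 83.9 in replicate 2, 121 in replicate 3 and 203 in the pooled list. A second thresholded region, with its summit 215 bp farther upstream, had a pooled signal of 79.8 and 78.2 in replicate 3. Replicate 2 had 1 region matching both (83.9), so these are 2 pooled regions over 1 region of that replicate. The region of rank 113 was 134 bp wide, and the highest regions of S (113 bp) and aos (103 bp) were narrow too, where 99.5% of pooled regions were 396 bp wide. Over the whole thresholded list 97 regions were narrower than 200 bp, all at rank 828 or better. The first TSS of spi had a weaker region (47.6; 29.1 in replicate 2 and 17.4 in replicate 3), and the third had one of 21.2.

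The other ligand gene, vn, had a single strong region deep in the gene. Vein resembles the neuregulins of vertebrates. The gene (FBgn0003984, chr3L:5813338-5845664, minus strand) had its thresholded summit at 5824269 in an intron, 21395 bp downstream of its only annotated TSS. The signal was 44.3 in replicate 2, 52.1 in replicate 3 and 98.1 in the pooled list, at rank 763. Near the TSS of vn itself the highest region within 500 bp had a signal of 22.8. The other 19 pooled regions of vn had signals from 18.4 to 48.7.

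The receptor gene Egfr came just short of the thresholded list. The gene (FBgn0003731, 2R 21522420 to 21559977, plus strand) had its highest region at 2R 21535587, in an intron 13167 bp into the gene and 1208 bp downstream of the TSS of the nested gene CG30286. Its pooled signal of 64.1 was 0.0929 below the lowest thresholded signal, and its rank was 1950. The signal was 26.5 in replicate 2, where the region ranked 2984, and 38.1 in replicate 3, where it ranked 1655. Egfr was therefore among the genes with 1 of the 1941 highest regions in replicate 3 and not in replicate 2. The next region (57.8; 23.9 and 35.3) lay 2487 bp downstream of the second TSS. At the first TSS a region 161 bp upstream had a signal of 48.4 (19.9 in replicate 2 and 30.04 in replicate 3). All 20 pooled regions of Egfr were in introns or at promoters. Of the 12 that both replicates held, 11 were higher in replicate 3, against 65.2% of all such pooled regions. The 12 are not all separate, since neighbouring regions matched the same region of replicate 3.

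The ligand processing genes differed. S had 3 thresholded regions and rho had none. Star is the chaperone of the Spitz precursor, and its gene (FBgn0003310, chr2L:1049674-1077815, minus strand) held all 3 in introns, 1890, 5400 and 14593 bp downstream of a TSS. The region at 5400 bp (summit 1072411) had a signal of 97.5 in replicate 2, 68.7 in replicate 3 and 164 pooled. The region at 1890 bp (summit 1075921) had 74.7, 84.4 and 162. Replicate 2 had the first of these higher and replicate 3 the second. The third (summit 1063218) had 36.3, 45.9 and 84.7. The promoter of S had a region 3 bp upstream of a TSS with a pooled signal of 50.3, which was 12.3 in replicate 2 and 34.6 in replicate 3.

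Rhomboid is the protease whose expression marks cells that send the signal. Its gene (FBgn0004635, chr3L:1463811-1468944, plus strand), the shortest of the 9 and within the span of Ptp61F on the other strand, had its highest region at its TSS, with the summit at 1463824, 13 bp downstream. Its signal was 20.0 in replicate 2, 30.6 in replicate 3 and 51 in the pooled list, at rank 3153. A neighbouring region 272 bp upstream of the TSS (37.9) was the higher of the pair in replicate 2 (24.2) and low in replicate 3 (13.1). No region of rho was among the 1941 highest of either replicate.

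Both inhibitor genes had 1 thresholded region, in an intron. The aos gene (FBgn0004569, chr3L:16470386-16483650, minus strand), a transcriptional target of the pathway in its own right, had its summit at 16480560, 3090 bp downstream of its TSS. The signal was 105 in replicate 2, 80.3 in replicate 3 and 182 in the pooled list, at rank 168, and in replicate 2 it was the highest of all regions at the 9 genes. The summit also lies within the span of CG33158 on the other strand. The next region of aos had a signal of 54.6. The sty gene (FBgn0014388, chr3L:3401153-3424935, minus strand) had its summit at 3418869, 908 bp upstream of its second TSS. The signal was 66.3 in replicate 2, 58.6 in replicate 3 and 128 in the pooled list, at rank 413. Neither TSS of sty had a pooled region within 500 bp, and its next highest region (57.1) lay between genes, beyond the 3′ end.

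The genes for the ETS factors each had 2 thresholded regions. Yan represses target genes until MAP kinase phosphorylates it. Its gene, aop (FBgn0000097, chr2L:2156484-2178754, minus strand), had its highest summit at 2163675, in an intron 2148 bp upstream of its second TSS. The signal was 66.6 in replicate 2, 67.4 in replicate 3 and 135 pooled, at rank 353. The second, at 2180222, was between genes and 1468 bp upstream of the first TSS, with 52.3 in replicate 2, 35.1 in replicate 3 and 89.7 pooled. A further 2 regions, at 2177733 (63.1) and 2179564 (59.7), flanked the first TSS just below the threshold.

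Pointed carries the signal to target genes and is also required in glia. Its gene, pnt (FBgn0003118, chr3R:23290231-23346167, minus strand), is the longest of the 9 and held the most pooled regions (32), but none was strong. The higher thresholded summit was at 23326543, in an intron 12228 bp upstream of the second TSS, with 30.8 in replicate 2, 38.8 in replicate 3 and 70.5 pooled, at rank 1586. The other was at 23314603, 288 bp upstream of that TSS, with 31.9 in replicate 2, 30.5 in replicate 3 and 65.4 pooled, at rank 1865. In replicate 2 the best region of pnt ranked 1959, so pnt had none among that replicate's 1941 highest. A further 5 regions of pnt, all in introns, had a q of 0.01 or less, with signals up to 55.2.

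The TSSs of the 9 genes, grouped where within 500 bp of each other, formed 16 promoters. A pooled region was within 500 bp of 13 of them, and a thresholded region was at 2, the internal promoter of spi and the second of pnt. The same shares over all promoters of the genome were not computed, so these counts do not set the 9 genes apart. The 3 promoters with no region were both of sty and the first of pnt.

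Ordered by their highest pooled region, the genes ran spi (203), aos (182), S (164), aop (135), sty (128), vn (98.1), pnt (70.5), Egfr (64.1) and rho (51). To set this against the replicates, the highest signal of each gene in a replicate's own list was divided by the median of that replicate's 1941 highest regions. On this scale spi had 1.95 in replicate 2 and 2.51 in replicate 3, aos 2.44 and 1.67, and S 2.27 and 1.76. These 3 genes overlapped. The lower value of S was above both values of aop (1.55 and 1.40), and those overlapped with sty (1.54 and 1.22). The values of vn (1.03 and 1.09) lay below those of sty and above those of pnt (0.740 and 0.809). Egfr (0.616 and 0.793) overlapped with both pnt and rho (0.563 and 0.637). With 2 replicates these are descriptions and no test was made.

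**Figure D2:**
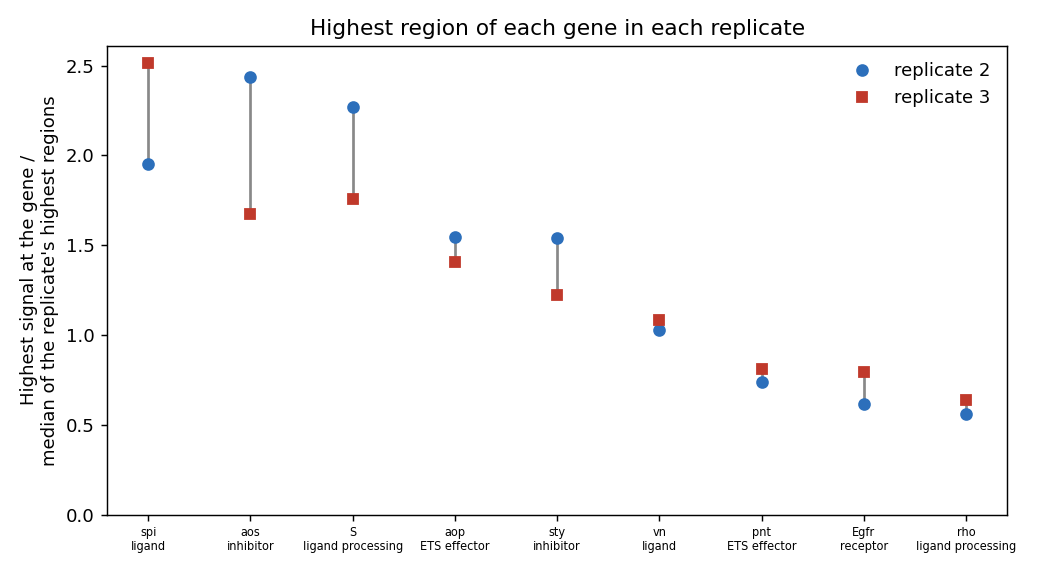
Highest signal at each gene in the list of replicate 2 (circles) and replicate 3 (squares), divided by the median of that replicate's 1941 highest regions; the line joins the replicates. The first 3 genes overlap with each other and lie above the next 2, and pnt, Egfr and rho lie below 1 in both replicates.

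In the replicates' own lists, 6 of the 9 genes had 1 of the 1941 highest regions of replicate 2 and 8 had 1 of replicate 3. Of all genes, of every span, 22.5% and 22.6% had one. The genes found in both were spi, vn, S, aos, sty and aop. Of the 12 thresholded regions, 9 were among the 1941 highest of each replicate (75.0%, against 61.3% of all thresholded regions). The exceptions were both regions of pnt and the upstream region of aop. The 9 include both regions of spi, which match 1 region of replicate 2. The thresholded regions are those of highest pooled signal, to which both replicates contribute, so these shares are no independent measure of reproducibility.

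Signals of the 12 differed between replicates by -0.58 to 0.52 on the log2 scale (replicate 3 minus replicate 2), with 6 higher in each replicate and a median of -0.02. Both regions of spi were set against the same region of replicate 2, so the 12 hold 11 distinct regions of that replicate. Over all 1928 thresholded regions found in both replicates the median was 0.18 and the SD 0.59. From that median, 10 of the 12 deviated by less than 1 SD. The 2 that deviated by more were the upstream region of aop and the region of S at 5400 bp, both higher in replicate 2. The share of all 1928 regions within 1 SD was not computed, so this count does not set the 12 apart.

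Of the 169 pooled regions, 82 (48.5%) had a summit within 200 bp in both replicates, against 41.8% of all pooled regions, and 10 had one in neither. Within 100 bp the shares were 33.1% and 31.4%, and within 500 bp 64.5% and 53.2%. The share found in neither was not computed over all pooled regions. Across the 82, Spearman's rho between the replicates' signals was 0.56, against 0.53 over all 12541 such regions. Both are across regions of the same libraries, and a replicate's region could match more than 1 pooled region, as at aos, sty and Egfr. The 82 are therefore not all separate regions in each replicate. Replicate 3 was the higher in 49 of the 82, but the genes differed, from 11 of 12 at Egfr to 2 of 8 at spi. Over all such regions replicate 3 was the higher in 65.2%.

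**Figure D3:**
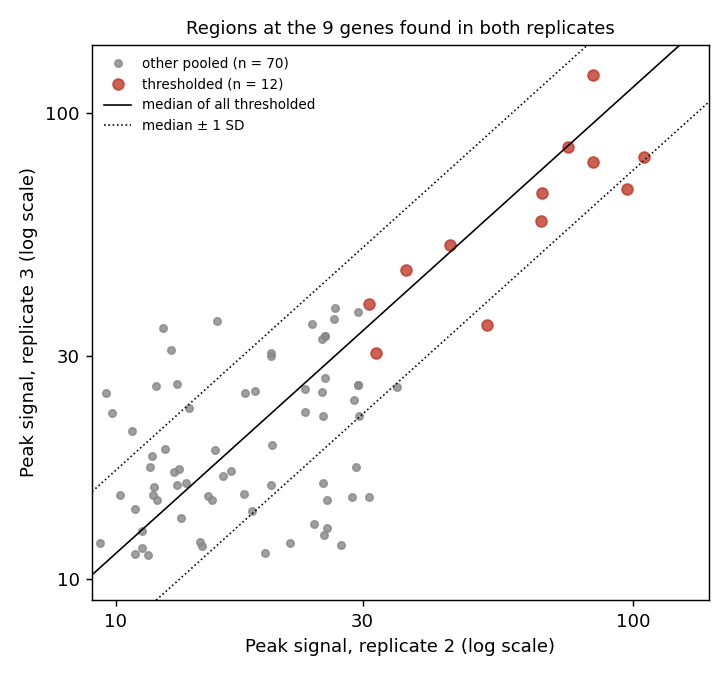
Peak signal in replicate 2 against replicate 3 (both log scales) for the 82 regions at the 9 genes found in both; red points are the 12 thresholded regions. The solid line is the median log2 difference of 0.18 over all thresholded regions and the dotted lines 1 SD (0.59) to either side; most red points lie between them, and the grey points scatter beyond.

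Pooled regions were dense at all 9 genes. The median was 6.23 regions per 10 kb of the gene with 3000 bp on either side. Over all protein-coding genes it was 2.92, and 2.95 over those in the span range of the 9 genes. The highest density was at spi, with 17 regions or 11.03 per 10 kb, at percentile 99.4 of all protein-coding genes, and at rho, with 10 regions or 8.98 per 10 kb, at percentile 97.5. The lowest were at Egfr (4.59, percentile 71.3) and S (4.69, percentile 72.3), so each of the 9 genes was above the median. At rho the density was high while no region passed, and at S it was lower with 3 thresholded regions. Of the 17 regions of spi 12 lay in the gene span itself, and of the 10 of rho 6. Both replicates held 8 of those 17 and 3 of those 10, against 41.8% of all pooled regions. Some neighbouring summits of spi were little more than 200 bp apart. A q of 0.01 or less was reached by 30 of the 169 regions (17.8%), against 12.0% of all pooled regions.

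**Figure D4:**
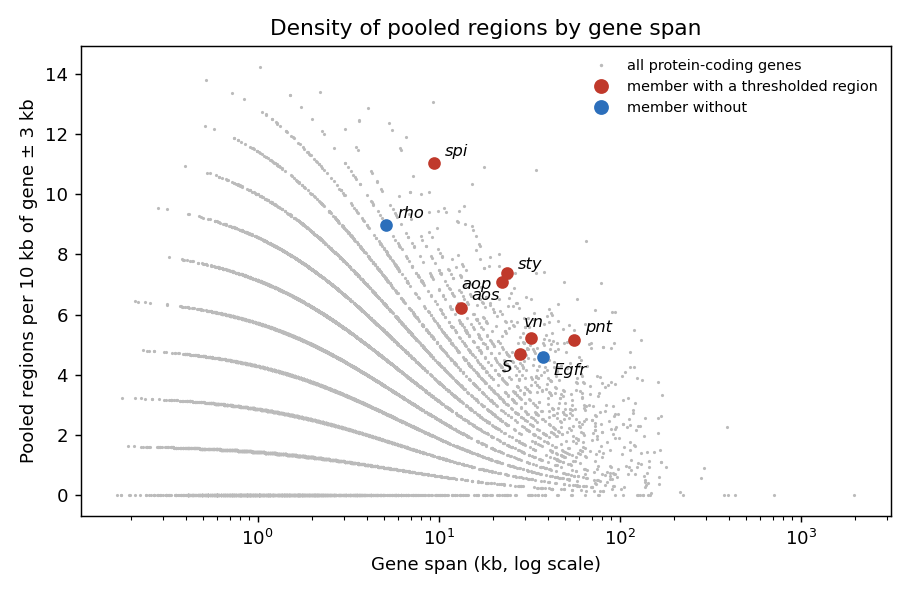
Pooled regions per 10 kb of the gene with 3 kb on either side against gene span in kb (log scale) for all protein-coding genes (grey) and the 9 genes (red with, blue without a thresholded region). The bands are genes with the same number of regions, and all 9 genes lie above the median of 2.92, with spi and rho highest.

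Of 24 other genes of the pathway, 12 had a thresholded summit within 3000 bp (50%). Of all protein-coding genes of a span between the shortest and longest of the 24 (1662 and 54466 bp) 26.8% had one. For 6 of the 12 no thresholded summit had the gene's own TSS as the nearest, and 11.2% of all genes had the nearest TSS to some thresholded summit. The 6 with their own TSS nearest were Krn, ru, Raf, RasGAP1, edl and cic.

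Among genes acting at the level of the ligand, Krn, a further Spitz-like ligand, had 2 thresholded regions, the higher in an intron (76.9; 40.8 in replicate 2 and 41.9 in replicate 3). The rhomboid-family protease gene ru had 1 (105; 45.2 and 57.3), 2356 bp upstream of its TSS. No thresholded region was found at grk, stet or rho-4. In the cascade, the kinase gene Raf had 8, the highest in an intron 2255 bp downstream of a TSS, with 110.4 in replicate 2, 174 in replicate 3 and 289 pooled. Of these 8, 6 had a TSS of Raf as the nearest. Among negative regulators and nuclear factors, RasGAP1 had 1 (158; 66.0 and 92.9) 751 bp upstream of its TSS. The gene edl, whose product antagonises Yan, had 3, the highest at 108 (59.6 and 46.2). The repressor gene cic had 2, the highest 226 bp upstream of a TSS (86.0; 41.2 and 40.0).

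The other 6 genes had regions closer to a neighbour. The region near Shc, at rank 15 of the pooled list (471; 171 and 297), was 114 bp upstream of the TSS of Atat. That near dos (111) was 22 bp upstream of RpL8, a ribosomal protein gene, and the higher of 2 near Ras85D (85.5) was 37 bp upstream of Rlb1. The regions near drk (134), cnk (166) and Spred (76.5) were nearest to mars, l(2)k01209 and BEAF-32. The remaining genes had none, among them Sos, Dsor1, ksr, csw and Cbl, and rl, the MAP kinase gene, had no pooled region at all in its window. Read coverage in the window of rl is unknown, so the lack of a region there does not show a lack of binding.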

How the data were processed

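The deposited files are lists of regions in narrowPeak format, in dm6 and dm3; the dm6 lists were used. Per the deposited notes, each list was derived from aligned reads and a control, and the thresholded list from the filter on irreproducible discovery. The caller, the aligner and the cut-off of that filter were not given in the sources used here. The authors deposited a signal and a −log10 q value for each region. The q values share a ceiling of 3.54, so regions were ranked by signal. The signal of the pooled list was close to the sum of those of the replicates (median ratio 1.00), so no pooled signal was compared with that of a replicate. Signals of replicates 2 and 3 were compared as deposited, beside the median difference over all thresholded regions, or after division by the median of each list's 1941 highest regions. Depth is unknown.

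The annotation was BDGP6.54 of Ensembl release 115, and bases were read from the RefSeq copy of the Release 6 assembly, which is the dm6 build; all 9 genes and all 24 further pathway genes were found by symbol. Positions are 1-based. A summit was assigned to a gene within 3000 bp of its span, summits within 200 bp of each other were matched between lists, and a promoter was the 500 bp on either side of a TSS. Assignment and matching were tested on simulated data. Python 3.11.15, numpy 2.4.6, pandas 2.3.3 and matplotlib 3.10.9 were used. The genes, lists and alternatives were chosen with earlier results of these data known. Named genes are the 9, the further pathway genes with a thresholded region, and the gene with the nearest TSS; those without a region are given as examples chosen after their values were seen. No tests were made, since there was 1 group of 2 replicates.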

Additional observations from a re-analysis of the deposited data

How the results depend on the processing

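The count of 7 of the 9 genes with a thresholded region was 7 with the gene span alone (6.53% of all genes), within 1000 bp (16.1%) and within 10000 bp (39.6%). It was 6 in the upper part of the thresholded list (signal above its median; 12.7% of all genes), where pnt was lost, and 6 by nearest TSS (11.2%), where vn was lost. With 1 replicate left out it ranged from 6 to 8. All these shares are over genes of every span, whereas the 9 genes are long. The 12 of 24 further pathway genes became 5 with the gene span alone and 6 by nearest TSS. By the other windows and the upper part of the list it ranged from 8 to 15, and from 11 to 12 with 1 replicate left out. The 3 thresholded regions with an E-box became 5 of 12 with 100 bases on either side of the summit, where 67.3% of all thresholded windows held one, and 2 with 25 bases (24.4%). The 169 pooled regions ranged from 131 to 222 with the width of the window, and from 160 to 169 with 1 replicate left out. The 82 regions found in both replicates ranged from 56 to 109 with the matching rule. At these ends the shares were 33.1% and 64.5%, against 31.4% and 53.2% of all pooled regions. The median rank of the highest region of the 9 genes was 413, and 353 to 598 with 1 replicate left out. No paired analysis was possible because there was only 1 group. The unknown depth and the control that was not analysed here limit what a region below the threshold, as at Egfr and rho, can show.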
